A study of Mus musculus with 2 samples.

Results

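The genes described here encode the proteins of the cytosolic ribosome, with the expressed and silent paralogs that resemble them. They were chosen by symbol alone: Rpsa, Rplp0, Rplp1 and Rplp2, and every symbol in which Rpl or Rps is directly followed by a digit, without the Rps6k kinases and without symbols marked as pseudogenes by -ps. This gave 86 of 23210 genes. Of these, 77 are canonical ribosomal protein genes (31 of the small and 46 of the large subunit), 8 are paralogs, and 1, Rps19bp1, encodes a binding partner of a ribosomal protein and is no part of the ribosome. A minimum of 5 FPKM (fragments scaled to transcript length and to library size) in the higher library was met by 82 of the 86. The other four were Rpl26 and the paralogs Rpl3l, Rpl10l and Rpl39l.

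RNA sequencing compared mouse hematopoietic stem cells (HSCs) sorted by a Tomato reporter of Satb1, the gene of a chromatin-organizing protein. Both groups were CD150-positive, Flt3-negative LSK cells (lineage-negative, Sca-1-positive, Kit-positive): 1 library of Satb1-Tomato-negative cells (SATB1-negative) and 1 of Satb1-Tomato-positive cells (SATB1-positive). The labels give no strain, age, further allele, treatment or number of animals for either group. With 1 library per group no difference has a replicate check, no p-value was computed, and every comparison is between these 2 libraries. Where values are given in pairs, the SATB1-negative library comes first.

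Satb1 was at 2.37 and 8.26 FPKM. All 8 listed HSC genes were present in both libraries, with 880 FPKM in sum against 691 FPKM, and 7 of the 8 were lower in the SATB1-positive library. The 4 cycling genes summed to 394 and 580 FPKM, the 4 granulocyte and monocyte genes to 1177 and 3095 FPKM, and the 6 T and NK cell genes to 12.0 and 61.3 FPKM. All members of these 3 lists were higher in the SATB1-positive library. The 3 mast cell and basophil genes, also all higher there, summed to 45.4 and 187 FPKM, and the 3 B cell genes to 0.611 and 1.14 FPKM. The 3 stroma genes summed to 24.4 and 66.9 FPKM, with the collagen genes Col1a1 and Col1a2 higher and the endothelial gene Cdh5 near 0 in both libraries. The 3 megakaryocyte genes summed to 107 and 143 FPKM and the 3 erythroid genes to 29.4 and 39.9 FPKM, with 2 of the 3 higher in each list. Flt3, absent from the cell surface by the sort gate, was at 17.3 and 27.1 FPKM. Since these markers move with the groups, they stand beside every ribosomal difference below, and their part in it was not tested. In bulk RNA, fewer cells of a type and less RNA per cell cannot be told apart.

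A ribosome holds 1 copy of nearly every ribosomal protein, in a small subunit that decodes the messenger RNA and a large subunit that forms peptide bonds. Most of these proteins are encoded by a single active gene with many silent processed copies (retroposed pseudogenes) across the genome. Their messenger RNAs start with a run of pyrimidines, the 5′ terminal oligopyrimidine (TOP) tract, through which their translation follows mTOR signalling. HSCs keep protein synthesis lower than most progenitors, and inherited loss of 1 copy of certain ribosomal protein genes causes Diamond-Blackfan anemia.

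A run of pyrimidines near the annotated start is found in many, but not all, of these genes. The lines below give, from RefSeq (GRCm38.p6, the same assembly as mm10), the 30 bases around the annotated start of 9 genes on which the results turn, 15 before the start and 15 from it on, 5′ to 3′ on the coding strand. The longest run of C and T is in capitals, and in Rpl13, Rplp0 and Rps27l it lies wholly before the annotated start. Rps27, Rps27l and Rpl22l1 are shown as a parent and 2 expressed paralogs, Rpl35, Rps24, Rps6 and Rpl13 for lower values in the SATB1-positive library, and Rpsa and Rplp0 for higher values there.
Rps27, chr3:90213634-90213663, minus strand: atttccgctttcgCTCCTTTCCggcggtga
Rps27l, chr9:66946071-66946100, plus strand: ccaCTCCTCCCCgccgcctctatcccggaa
Rpl22l1, chr3:28805493-28805522, plus strand: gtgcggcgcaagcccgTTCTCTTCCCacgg
Rpl35, chr2:39005117-39005146, minus strand: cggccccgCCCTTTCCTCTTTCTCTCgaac
Rps24, chr14:24490663-24490692, plus strand: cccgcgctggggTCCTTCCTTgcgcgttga
Rps6, chr4:86857353-86857382, minus strand: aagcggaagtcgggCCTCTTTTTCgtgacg
Rpl13, chr8:123102335-123102364, plus strand: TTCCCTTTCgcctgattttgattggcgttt
Rpsa, chr9:120127751-120127780, plus strand: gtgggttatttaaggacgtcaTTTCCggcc
Rplp0, chr5:115559452-115559481, plus strand: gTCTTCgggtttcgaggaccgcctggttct

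The RefSeq table matched 65 of the 86 genes, 57 of them canonical. A run of 6 or more C or T bases lay in this window in 35 of the 57 (61.4%), against 32.7% of all 27018 genes of the table and 32.7% of the 670 matched genes at 100 FPKM or more outside the group. Where a gene has several annotated starts, the longest run was taken. The letters CTTTC stood on the coding strand of 16 of the 57 (28.1%), against 4.76% of all genes, and on the opposite strand of 3 (5.26%), against 4.21%. TCTTT, which can overlap CTTTC, was found on the coding strand of 11 (19.3%, against 4.16%) and on the opposite strand of 1 (1.75%, against 4.0%). CTTCC was found on the coding strand of 12 (21.1%, against 7.82%) and on the opposite strand of 9 (15.8%, against 8.54%). These are matches of letters in a window and not measured start sites. The median log2 ratio of SATB1-positive to SATB1-negative FPKM was -0.21 in the 35 with a run of 6 or more and -0.16 in the 21 others at 5 FPKM or more. The genes printed above were not picked to compare run length with direction. Rpl7a and Rpl34, with runs of 21 and 18 bases, were higher in the SATB1-positive library (log2 ratios 0.11 and 0.09). Rpl35, also with a run of 18 bases, was lower there (-0.56), as were genes with runs of 19 and 17 bases. Rpl11 and Rpl37a, with runs of 3 and 4 bases, were lower in the SATB1-positive library (-0.38 and -0.34). Rpsa and Rplp0, with runs of 5 bases, were higher (0.41 and 0.24). These examples were picked with their ratios known.

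Ribosomal protein transcripts made up 11.11% of all FPKM in SATB1-negative and 10.01% in SATB1-positive cells. Their sum was 55389 FPKM in the first and 49842 FPKM in the second, a ratio of 0.900. The small subunit genes summed to 24057 and 21695 FPKM and the large subunit genes to 30915 and 27755 FPKM, and the ratios of the subunits were close (0.902 and 0.898). The 10 most abundant genes held 38.4% and 37.5% of the group's FPKM.

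Differences are given as log2((SATB1-positive FPKM + 1)/(SATB1-negative FPKM + 1)), which understates the difference of genes near 1 FPKM. Of the 76 canonical genes at 5 FPKM or more, 56 were lower and 20 higher in the SATB1-positive library. Their median log2 ratio was -0.16, a fold of 0.897, against -0.00017 over all 9308 genes at 5 FPKM or more and -0.0022 over the 890 genes at 100 FPKM or more outside the group. The small subunit had 23 of 31 genes lower and a median of -0.20, and the large subunit 33 of 45 lower and a median of -0.15. The middle 50% of the canonical genes ran from -0.27 to 0.0071, so most of the differences were well under 2-fold.

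By a rule of at least 2-fold (log2 ratio of 1 or -1, with 5 FPKM in the higher library), 1 of the 82 genes, Rps27, was lower and 0 were higher. Over all 9308 genes the same rule counts 0.688% as lower and 1.31% as higher. By a small-fold rule (a log2 ratio of 0.32 or -0.32, which is 25% higher or 20% lower), 18 of the 82 were lower and 2 higher, against 10.2% lower and 11.1% higher over all genes. Of genes at 100 FPKM or more, 9.31% were lower and 10.4% higher by the small-fold rule. This rule was set because earlier results of these data put most members under 2-fold. The 18 were 11 large subunit genes, 6 small subunit genes and the paralog listed as Rps4y2. Both higher ones were small subunit genes, Rpsa among them.

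**Figure D1:**
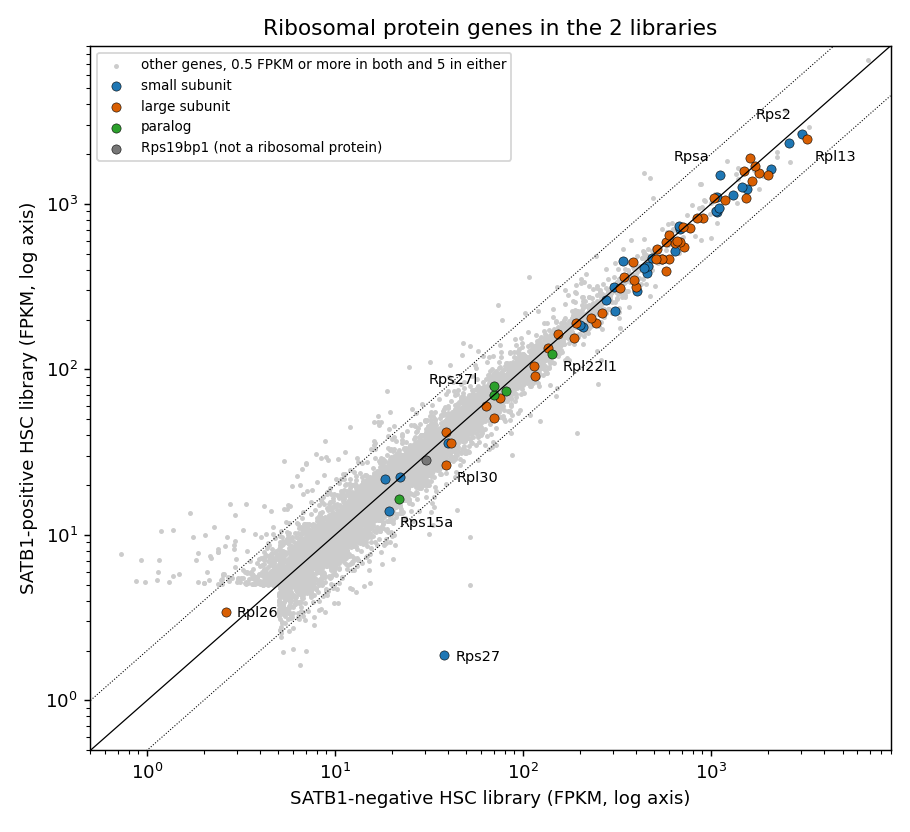
FPKM in the SATB1-negative library (x, log axis) against the SATB1-positive library (y, log axis) for ribosomal protein genes (colored by subunit or as paralogs) and other genes (grey); the solid line marks equal values and the dotted lines a 2-fold difference. Most ribosomal genes lie just under the line of equal values, and Rps27, at 38.2 and 1.88 FPKM, is the one plotted ribosomal gene outside the 2-fold lines; the 3 paralogs near 0 are below the axes.

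Among small subunit genes, the most abundant were Rps2, at 3055 and 2662 FPKM, Rps3a, at 2593 and 2323 FPKM, and Rps9, at 2093 and 1629 FPKM. Rps2 and Rps3a line the messenger RNA entry and exit sides of the subunit, and Rps9 supports decoding accuracy. All 3 were lower in the SATB1-positive library, Rps9 by 1.28-fold. The interval for counting error of that fold is 1.26 to 1.31. Such intervals are 95% exact (Clopper-Pearson) intervals on fragment numbers estimated from FPKM, and they cover counting error only, not the spread between animals or sorts. The estimates rest on about 34920000 and 26540000 fragments in all.

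Rps24, mutated in some families with Diamond-Blackfan anemia, was at 309 and 224 FPKM, 1.37-fold lower (1.29 to 1.46) in the SATB1-positive library. Rps15a was at 19.4 and 14.0 FPKM, 1.38-fold lower (1.14 to 1.68), and Rps12 at 402 and 299 FPKM. Rps6, the subunit protein that S6 kinases phosphorylate downstream of mTOR, was at 1553 and 1232 FPKM, 1.26-fold lower (1.24 to 1.28). Together with Rps9 and Rps27 these are the 6 small subunit genes lower by the small-fold rule.

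Rps19, the gene most often mutated in Diamond-Blackfan anemia, was at 1066 and 904 FPKM (log2 ratio -0.24). Rps14, whose loss accounts for the anemia of the human 5q- syndrome, was at 1097 and 945 FPKM (-0.21). Rps27a, which is made as a fusion with ubiquitin, was at 462 and 424 FPKM (-0.12). All 3 were lower in the SATB1-positive library by less than the small-fold rule asks, as most of the group were.

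Rpsa, on chromosome 9 at 120127689 to 120132369 (mm10), encodes a small subunit protein also known as the laminin receptor, and its mutation in humans causes congenital absence of the spleen. It was at 1121 and 1493 FPKM, 1.33-fold higher (1.32 to 1.35). Rps29, the third highest ratio of the subunit, was at 18.5 and 21.9 FPKM, with an interval of 0.906 to 1.54 that includes equality.

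Rps27 stood far from every other gene of the group. It encodes a zinc finger protein of the small subunit (metallopanstimulin) on chromosome 3 (90212522 to 90213651, minus strand). The gene was at 38.2 and 1.88 FPKM, 20.4-fold lower (9.66 to 51.4), with about 165 and 7 fragments behind these values. Its log2 ratio was -3.77, while the next lowest of the subunit, Rps24, was at -0.46.

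**Figure D2:**
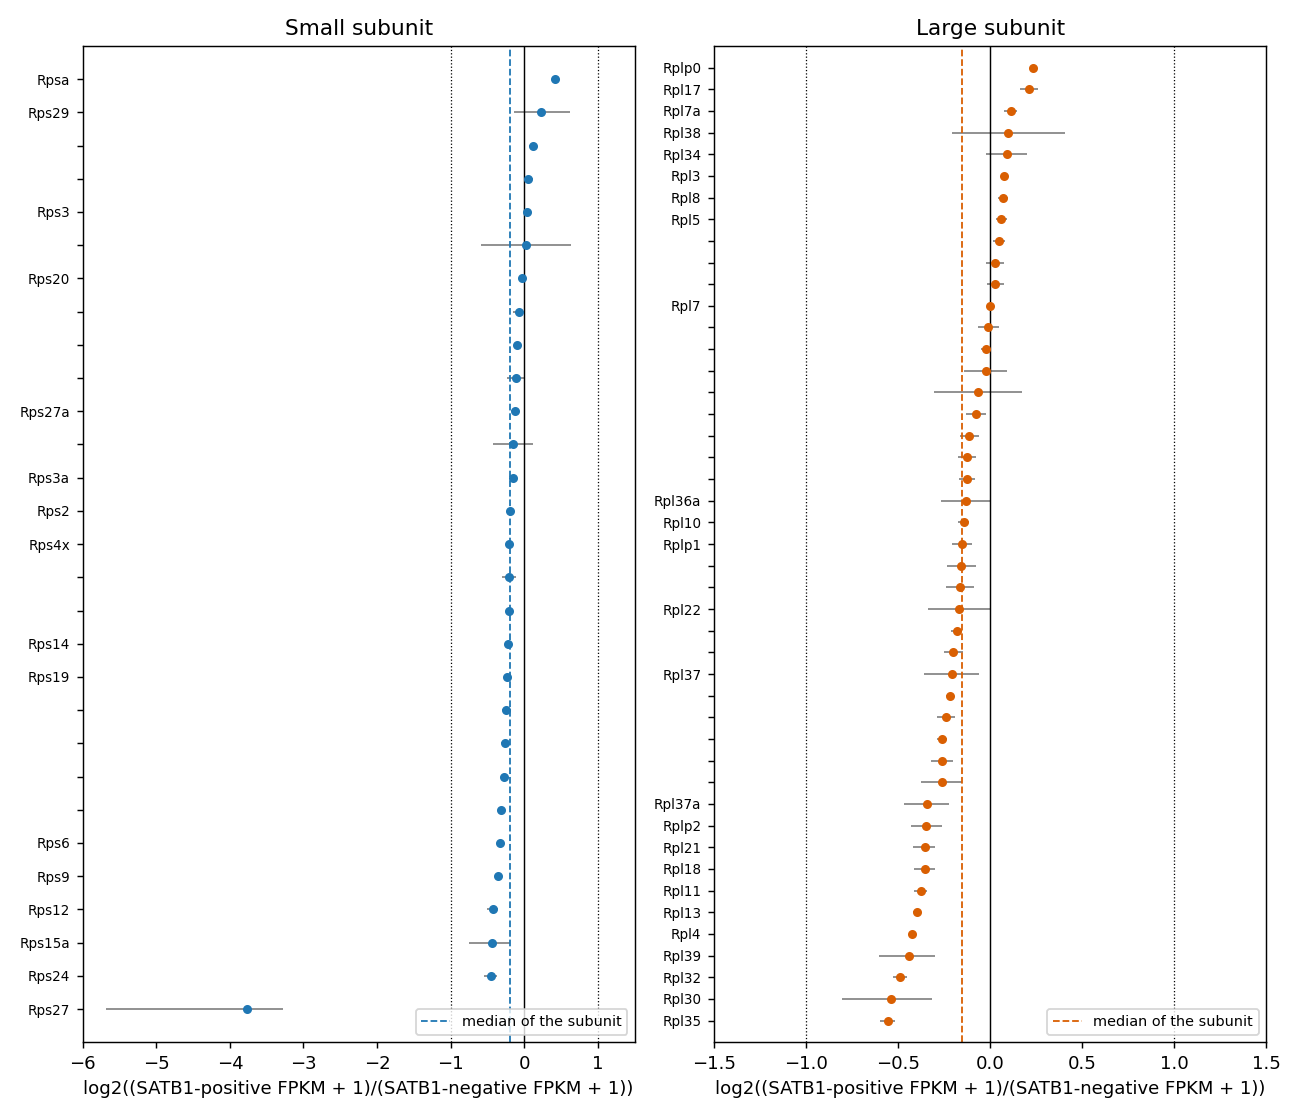
log2 ratio of SATB1-positive over SATB1-negative FPKM (pseudocount 1) for small (left) and large (right) subunit genes at 5 FPKM or more, with those named in the text labelled and 2 small subunit genes not drawn; bars are 95% intervals for counting error of the plain fold, dashed lines the subunit medians and dotted lines 2-fold. Rps27 lies at -3.77 on the wider left axis, and all other genes drawn lie between -0.56 and 0.41.

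Large subunit genes showed the same leaning, with none higher by the small-fold rule. The most abundant were Rpl13, at 3252 and 2465 FPKM, Rpl4, at 2015 and 1503 FPKM, and Rplp0, at 1602 and 1885 FPKM. Rpl13 was 1.32-fold lower (1.30 to 1.34) and Rpl4, which lines the exit tunnel of the nascent chain, 1.34-fold lower (1.33 to 1.36). Rplp0 was higher, and is described with the stalk.

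The lowest ratios of the subunit were those of Rpl35, Rpl30 and Rpl32. Rpl35, a protein at the tunnel exit, was at 575 and 391 FPKM, 1.47-fold lower (1.43 to 1.51). Its chosen transcript overlaps exons of Arpc5l and Wdr38. Such overlaps, found for 11 of the 77 canonical genes, were taken without regard to strand. Whether fragments in them were assigned to the other gene was not tested. Rpl32, at 1526 and 1086 FPKM, was 1.41-fold lower (1.37 to 1.44) and overlaps Cand2. Rpl30 was at 38.7 and 26.3 FPKM, a ratio of SATB1-positive to SATB1-negative of 0.679 (0.573 to 0.803). The other large subunit genes lower by the small-fold rule, apart from Rpl11 and Rplp2, were Rpl18 (595 and 464 FPKM), Rpl21 (245 and 191 FPKM), Rpl37a (115 and 90.9 FPKM) and Rpl39 (69.9 and 51.2 FPKM). Rpl30 and Rpl37 (41.6 and 35.95 FPKM) were, after Rpl26, the least abundant genes of the subunit.

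Rpl5 and Rpl11, which bind 5S RNA together and, when free of the ribosome, hold back the p53 inhibitor Mdm2, parted. Rpl5 was at 345 and 360 FPKM, 1.04-fold higher (1.02 to 1.06), and its chosen transcript overlaps exons of Fam69a. Rpl11 was at 714 and 549 FPKM, 1.30-fold lower (1.27 to 1.33), and is 1 of the 11 large subunit genes lower by the small-fold rule. Both are Diamond-Blackfan anemia genes. Rpl38, known for its part in translating Hox messenger RNAs in the embryo, was at 39.0 and 41.8 FPKM, a 1.07-fold difference whose interval (0.865 to 1.33) includes equality.

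The stalk of the large subunit recruits elongation factors and is built of Rplp0 with dimers of Rplp1 and Rplp2. Rplp0 was at 1602 and 1885 FPKM, 1.18-fold higher (1.16 to 1.19), the highest ratio of its subunit at 5 FPKM or more. Rplp1 was at 647 and 583 FPKM, 1.11-fold lower (1.07 to 1.15). Rplp2 was at 400 and 314 FPKM, 1.27-fold lower (1.20 to 1.35). The transcripts of the anchor protein and of its partners thus differed in opposite directions, and the sum of the 3 was 2648 and 2782 FPKM. Protein was not measured. Rpl17 and Rpl7a had the next highest ratios: Rpl17 was at 384 and 445 FPKM (log2 ratio 0.21) and Rpl7a at 598 and 646 FPKM (0.11).

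Although a ribosome needs these proteins in equal number, the deposited levels of the canonical genes ran from 2.61 FPKM for Rpl26 to 3252 FPKM for Rpl13 without Satb1-Tomato. FPKM is already divided by transcript length, yet the 24 canonical genes with transcripts under 500 bases had a median of 270 FPKM there, the 26 of at least 500 but under 800 bases 562 FPKM and the 27 of 800 bases or more 714 FPKM. In the SATB1-positive library these medians were 222, 464 and 646 FPKM. Across the 77 canonical genes, which share both libraries, length and mean level had a Spearman correlation of 0.49 and a Pearson correlation of 0.31, given as a description. The median log2 ratios of the 3 length classes were -0.14, -0.21 and -0.13.

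Much of the sequence of these genes also occurs elsewhere in the genome. Of the 50-base words of a canonical gene's transcript, a median of 62.2% also occur in annotated transcripts of other genes, against 0.0% for the 884 matched genes at 100 FPKM or more outside the group. A pseudogene transcript shared words with 76 of the 77 canonical genes, with a median of 8 such pseudogenes per gene and as many as 119 for Rpl7a. How the authors treated fragments that fit several places is not given in the sources used here. Only 8 canonical genes had at most 25% of their words shared, among them Rps3, Rps9, Rps20, Rpl4, Rpl8, Rpl22 and Rpl39. Of these, 5 were lower in the SATB1-positive library, with a median log2 ratio of -0.10. Rps3 was at 687 and 708 FPKM and Rps20 at 484 and 474 FPKM, both nearer to equality than Rps9. Over its 4 genes of this kind the small subunit had a median of 0.0029, and the large subunit -0.29, so the small subunit's median is not below 0 among them. The shared percentage depends on the transcript chosen for each gene. That of Rps20 has 3706 bases and those of Rps3 and Rps9 have 489 and 478, against a median of 633 over the canonical genes. Across the 76 genes, the shared percentage and the log2 ratio had a Spearman correlation of -0.080.

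The files also list single-exon rows that resemble members, and 4 of them hold many fragments. Gm9846, which RefSeq names Rps27rt and classes as protein coding, is on chromosome 9 at 114982366 to 114982739 and holds 83.6% of the 50-base words of Rps27. It was at 154 and 143 FPKM, 4.02 and 76.4 times the level of Rps27 itself. The sum of Rps27 and Gm9846 was 192 and 145 FPKM, a log2 ratio of -0.40 in place of -3.77, and under the 2-fold rule. Of that sum Rps27 held 19.9% and 1.29%. The 1 gene past 2-fold therefore does not pass once the 2 rows are added, a sum chosen after the values were seen.

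Rpl26 also lay far below a resembling row, in both libraries. It was at 2.61 and 3.43 FPKM, while the processed pseudogene Gm15772, with 60.6% of its words, was at 434 and 352 FPKM. Their sum, 436 and 355 FPKM, had a log2 ratio of -0.30, where large subunit genes had a median of -0.15 and a lower quartile of -0.26. Rpl26 alone had 0.29 on about 29 and 30 fragments. Gm12191, with 50.2% of the words of Rpl30, was at 218 and 219 FPKM, and its sum with Rpl30 was 256 and 246 FPKM (log2 ratio -0.06 against -0.54 for Rpl30 alone). Rpl34-ps1, with 50.6% of the words of Rpl34, was at 71.7 and 44.1 FPKM, and its sum with Rpl34 was 225 and 207 FPKM (-0.12 against 0.09). Each of the 4 sums was lower in the SATB1-positive library. A further row with such a stretch, the coding gene Wdr89 with 65.1% of the words of Rplp2, was at 6.31 and 6.35 FPKM.

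**Figure D3:**
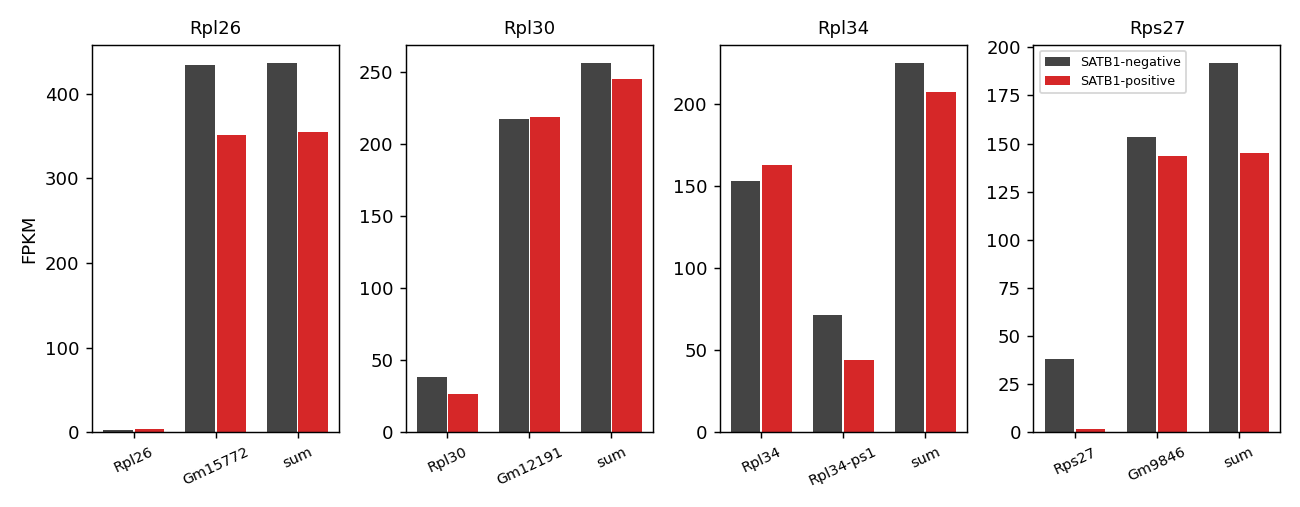
FPKM of 4 ribosomal protein genes, of the listed row that shares at least 50% of their 50-base words, and of both together, in the SATB1-negative (black) and SATB1-positive (red) library; each panel has its own axis from 0. For Rpl26, Rpl30 and Rps27 the resembling row is higher than the gene itself, and each sum is lower in the SATB1-positive library.

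The paralogs were expressed to very different degrees. Rps27l, on chromosome 9 at 66946086 to 66949516, is a close relative of Rps27 and a target of p53. It was at 69.7 and 70.2 FPKM, a fold of 1.01 (0.901 to 1.13). By the listed rows it made up 64.6% of the pair Rps27l and Rps27 in the first library and 97.4% in the second. With Gm9846 added to Rps27 (192 and 145 FPKM), Rps27l held 26.7% and 32.6% and was below the parent in both libraries. The log2 ratio of the paralog exceeded that of its parent by 3.78, or by 0.41 with Gm9846 added to the parent.

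Rpl22l1 was above its parent. Rpl22, a large subunit protein needed for the development of αβ T cells, was at 75.8 and 67.4 FPKM, and Rpl22l1, which can take its place and acts in the emergence of HSCs, at 142 and 123 FPKM. The paralog held 65.3% and 64.7% of the pair, and both genes were lower in the SATB1-positive library by a similar factor (log2 ratios -0.21 and -0.17). Rpl36al, whose chosen transcript overlaps exons of Gm49383, was at 70.3 and 79.4 FPKM beside Rpl36a at 115 and 105 FPKM. It held 37.9% and 43.1% of the pair. It was higher in the SATB1-positive library where Rpl36a was lower, and the pair together was at 185 and 184 FPKM.

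Rpl7l1, a relative of a yeast factor for assembly of the large subunit, was at 81.1 and 74.4 FPKM, 4.55% and 4.18% of its pair with Rpl7 (1702 and 1704 FPKM). Rps4y2, which RefSeq names Rps4l and classes as a transcribed pseudogene, was at 21.8 and 16.5 FPKM beside its X-linked parent Rps4x at 1304 and 1134 FPKM. The tissue-restricted paralogs were near 0. Rpl3l, of heart and skeletal muscle, was at 0.148 and 0.179 FPKM beside Rpl3 at 1498 and 1580 FPKM. Rpl10l, of male germ cells, was at 0.0351 and 0.0914 FPKM beside Rpl10 at 902 and 816 FPKM. Rpl39l, also of germ cells, was at 0.239 FPKM in SATB1-negative cells and listed at 0 in the other library, beside Rpl39 at 69.9 and 51.2 FPKM. Rps19bp1, the row that is no ribosomal protein, was at 30.6 and 28.5 FPKM.

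**Figure D4:**
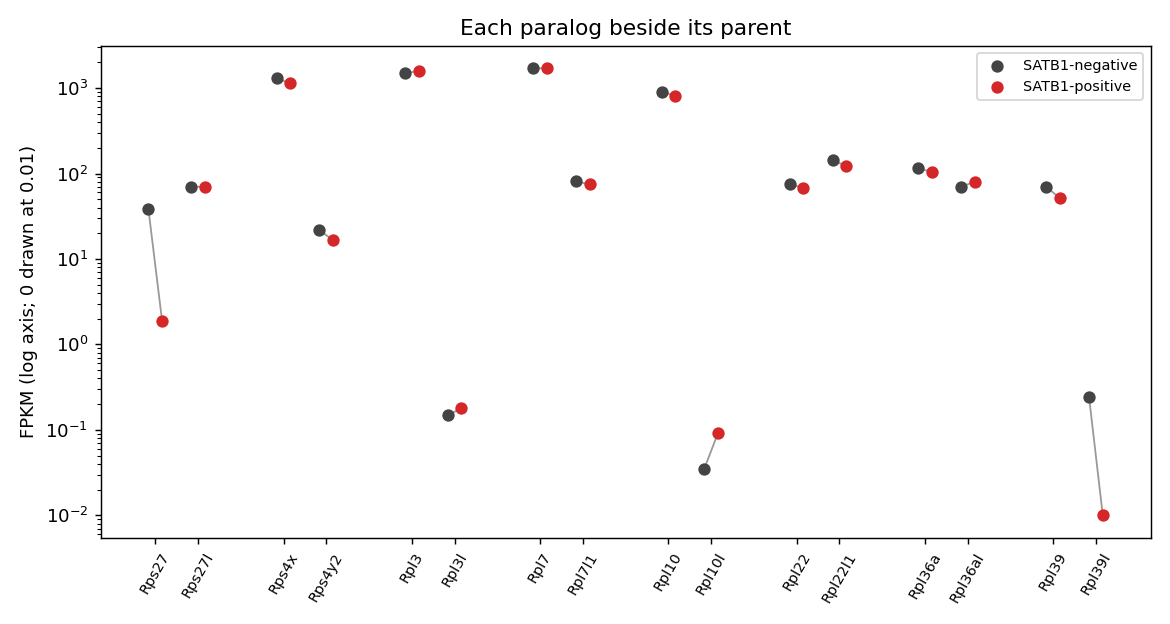
FPKM (log axis, 0 drawn at 0.01) of each parent and its paralog in the SATB1-negative (black) and SATB1-positive (red) library. Rpl22l1 lies above its parent in both libraries, as does Rps27l above the row of Rps27 alone (with Gm9846 added to Rps27, not drawn, Rps27l would lie below), Rpl3l, Rpl10l and Rpl39l below 1 FPKM, and Rps27 has the one large difference among the expressed genes.

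Other genes of the ribosome and of its production were also listed. Among further proteins of the mature ribosome with other symbols, Fau was at 290 and 278 FPKM, and Rack1, listed as Gnb2l1, at 620 and 771 FPKM. Of 67 ribosome biogenesis genes at 5 FPKM or more, 54 were higher and 13 lower in the SATB1-positive library, with a median log2 ratio of 0.12. By the 2-fold rule 2 of the 67 were higher and 1 lower, against 1.31% and 0.688% over all genes. Of all 9308 genes at 5 FPKM or more, 4653 were higher and 4655 lower, beside which the lists below also stand. Fbl, the methyltransferase of box C/D RNA particles, was at 77.7 and 200 FPKM (2.57-fold higher), and Gar1, of box H/ACA particles, at 29.1 and 61.7 FPKM (2.12-fold higher). Npm3, with an exon overlapping Gm15491, was at 31.5 and 10.2 FPKM, and Nop10 at 78.9 and 64.7 FPKM. Npm1, the most abundant of the list, was at 1387 and 1645 FPKM.

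Translation factors had 27 of 40 genes higher in the SATB1-positive library and a median log2 ratio of 0.04, with 0 past 2-fold as higher and 1, Eif4a2 (259 and 114 FPKM), as lower. Tpt1, which carries a TOP tract like the ribosomal protein genes, was at 1367 and 1008 FPKM. Eif2s2, at 80.2 and 104 FPKM, and the TOP gene Pabpc1, at 319 and 404 FPKM, had the highest ratios. Eef1a1, the elongation factor gene with the highest level, also a TOP gene, was at 6849 and 7357 FPKM. Tpt1 was thus lower, and Pabpc1 and Eef1a1 higher, in the SATB1-positive library. They were named for their ratio or level, and TOP genes were not compared as a set. Of 76 mitochondrial ribosomal protein genes, 46 were lower and 30 higher, with a median of -0.04 and 0 past 2-fold. Their ratios ran from -0.35 for Mrpl52 and -0.30 for Mrpl38 to 0.28 for Mrps22 and 0.31 for Mrpl47, and Mrpl18, the most abundant, was at 138 and 140 FPKM.

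**Figure D5:**
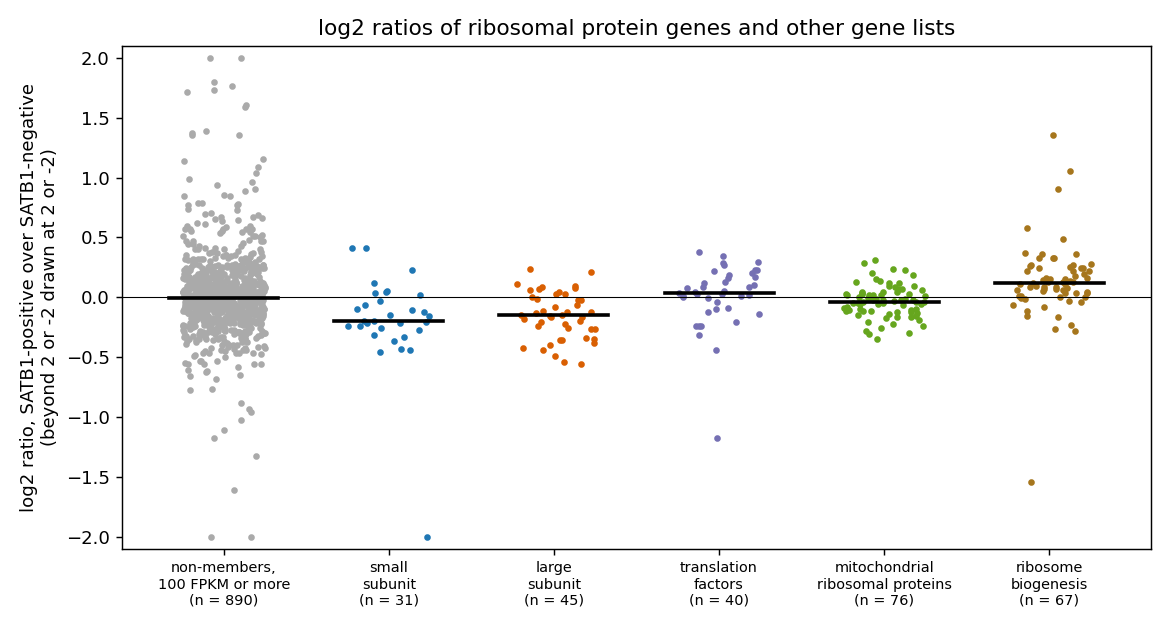
log2 ratio of SATB1-positive over SATB1-negative FPKM for genes of each list at 5 FPKM or more, and for other genes at 100 FPKM or more; each point is a gene, the black bar is the median, and values beyond 2 or -2 are drawn at 2 or -2. The small and large subunit medians, -0.20 and -0.15, lie below 0, and the ribosome biogenesis median, 0.12, above it.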

How the data were processed

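The authors deposited 1 table of FPKM values for each library, with gene symbols as row names, per the file headers. Behind them stand Cufflinks 2.2.1, TopHat2 2.0.13 with Bowtie2 2.2.3, and SAMtools 0.1.19, on mm10, per the submitters' processing notes; settings and annotation were not given in the sources used here. Per the labels' protocols, RNA from a miRNeasy extraction went into a strand-specific SMARTer library kit (Clontech). Of 23235 rows per file, 25 with symbols turned into spreadsheet dates were left out.

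Log2 ratios of FPKM plus a pseudocount of 1 were computed in Python 3.11.15 with pandas 2.3.3 and SciPy 1.17.1. Depth was estimated from low values of single-exon genes, which step by 1 fragment: 62.5% of 200 and 62.2% of 230 values were whole within 0.05 fragments, where a random depth gives 10%. The search chose depths to raise this share. Lengths came from the shortest basic coding transcript in GENCODE M21 (for Rps4y2, which has none, the annotated pseudogene transcript), which matched all 86 genes. Without molecular identifiers PCR copies count as fragments, so intervals can be too narrow. The depth search and the 2-fold rule were tested on counts simulated at the estimated depths. Shared sequence, the small-fold rule and the intervals were not part of that simulation. Named genes were those past 2-fold, the 3 highest and lowest ratios and levels of each subunit, all paralogs with parents, the stalk, Rps27a and 8 genes with known roles. In each other list they were the 2 highest, the 2 lowest and the most abundant. Genes named beyond this rule (Rps12, 3 further large subunit genes, the genes with few shared words and the resembling rows) were chosen after their values were seen. Members, lists and the small-fold rule were chosen with earlier results of these data known. A few genes enter the counts, medians and sums but are not reported here by name.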

Additional observations from a re-analysis of the deposited data

How the results depend on the processing

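The 2-fold count of 1 lower gene became 0 with a minimum of 100 FPKM, since Rps27 is below it, and 0 with resembling rows added to their parents. That sum, chosen after seeing the data, moved the Rps27l minus Rps27 difference from 3.78 to 0.41 and Rps27 to -0.40; a pseudocount of 5 put Rps27 at -2.65. The summed ratio of 0.900 was 0.891 when scaled by the sum of other genes and 0.896 by the upper quartile. With at most 25% of words shared, also chosen after seeing the data, it was 0.880 and the large subunit median -0.29. The small subunit median was then 0.0029, which turns its direction over 4 canonical genes. Which genes pass this limit depends on the transcript chosen for each, and the cause was not tested. Pseudocounts, scalings and other minimums left the subunit medians below 0. Scaling moved the median of all genes to between -0.015 and 0.0026. No paired analysis was possible because each group has 1 library, and leaving out replicates was not possible either. Depth limits Rps27, Rpl26 and the silent paralogs, which rest on few fragments.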
